A study of Homo sapiens with 4 samples.

Results

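The peaks described here are those that the authors assigned to genes named ZNF and a number, with at most 1 letter after it (ZNF263, ZNF518B). The shALKBH5 list held 1202 such peaks among 24626, or 4.88% (4.62 to 5.16), in 405 of 12076 genes, and the shNC list held 1128 among 22448, or 5.02% (4.74 to 5.32), in 395 of 11306 genes. Together they covered 412 of the 12779 genes with a peak in either list. The lists come from m6A-seq of RPMI-8226, a long-established line of human multiple myeloma cells. In this assay poly(A) RNA carrying N6-methyladenosine (m6A) is pulled down with an antibody and its sequence reads are set against those of unselected input RNA. All cells were transduced with lentivirus, which carried either a short hairpin RNA against the m6A demethylase ALKBH5 (shALKBH5) or the hairpin called shNC. Each condition had 1 immunoprecipitated (IP) and 1 input library and gave 1 peak list, so no value has a replicate and no test between conditions was made. All intervals in brackets are exact 95% intervals for the counting error of peaks or genes, which are not independent replicates, and library depth is unknown because the lists hold no read counts. The labels do not say which promoter drove the hairpins.

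The name ZNF is given mostly to genes for C2H2 zinc finger proteins, which bind DNA through arrays of finger motifs that a single long last exon often encodes. Many carry a KRAB domain, which recruits TRIM28 and with it the methyltransferase SETDB1 to silence chromatin, in particular at transposable elements, and many of these genes lie in clusters on chromosome 19. m6A is laid down on adenosines of mRNA, with a known preference for long internal exons and the region around the stop codon, and ALKBH5 removes it. The authors' description of each gene named a C2H2 zinc finger for 394 of the 412 genes (95.6%), so the name stood for the protein class in nearly all. A KRAB domain was named for 278 genes, 14 of them with a SCAN domain as well, a SCAN domain alone for 7, neither for 113 and no domain at all for 14, and 12 names were those of pseudogenes. Of 8 plasma cell markers, 6 (among them SDC1 and IRF4) had peaks in both lists and TNFRSF17 and JCHAIN had none. Of 9 markers of T cells, myeloid cells and stroma, 0 had a peak. Among coding genes without a ZNF name 48.3% had a peak in either list, so these few markers are only a weak check of the cell line. A gene without a peak is not shown to be unexpressed.

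Peaks at the start of the gene were the rarest kind among ZNF genes, and 4 of them are shown with the sequence they reach into. A peak was placed at the start when its 5' edge lay upstream of the RefSeq gene start or less than 500 bp inside. Each window runs from 250 bases before to 50 bases after a RefSeq start on GRCh38.p14, is written 5' to 3' on the gene's strand, and has the bases covered by the shALKBH5 peak in capitals. ZNF263 (chr16:3283241-3283540, plus strand), a C2H2 repressor with SCAN and KRAB domains, and ZNF622 (chr5:16465751-16466050, minus strand), a factor of large ribosomal subunit maturation, had start peaks in both lists. ZNF598 (chr16:2009772-2010071, minus strand), a ubiquitin ligase that recognises collided ribosomes, and ZNF207 (chr17:32349907-32350206, plus strand), a spindle assembly factor, had the strongest start peaks by p that reached such a window and overlapped nothing in the shNC list.
ZNF263: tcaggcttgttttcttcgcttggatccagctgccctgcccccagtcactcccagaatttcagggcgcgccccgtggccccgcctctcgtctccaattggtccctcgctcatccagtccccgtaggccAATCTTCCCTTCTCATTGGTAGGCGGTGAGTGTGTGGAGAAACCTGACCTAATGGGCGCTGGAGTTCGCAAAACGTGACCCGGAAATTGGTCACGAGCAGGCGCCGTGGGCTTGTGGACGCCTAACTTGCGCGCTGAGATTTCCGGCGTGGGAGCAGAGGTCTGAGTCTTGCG
ZNF622: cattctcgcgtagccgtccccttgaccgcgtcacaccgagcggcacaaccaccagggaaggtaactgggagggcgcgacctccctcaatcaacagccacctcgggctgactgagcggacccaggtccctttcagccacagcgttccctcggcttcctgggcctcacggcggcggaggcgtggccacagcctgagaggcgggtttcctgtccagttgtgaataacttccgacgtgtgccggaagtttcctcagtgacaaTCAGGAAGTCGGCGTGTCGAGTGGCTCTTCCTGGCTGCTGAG
ZNF598: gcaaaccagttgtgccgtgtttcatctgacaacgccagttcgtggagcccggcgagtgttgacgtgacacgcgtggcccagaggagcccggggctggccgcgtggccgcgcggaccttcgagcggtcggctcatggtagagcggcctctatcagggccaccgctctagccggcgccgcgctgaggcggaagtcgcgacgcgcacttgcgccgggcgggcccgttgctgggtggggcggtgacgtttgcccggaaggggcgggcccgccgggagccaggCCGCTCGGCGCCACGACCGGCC
ZNF207: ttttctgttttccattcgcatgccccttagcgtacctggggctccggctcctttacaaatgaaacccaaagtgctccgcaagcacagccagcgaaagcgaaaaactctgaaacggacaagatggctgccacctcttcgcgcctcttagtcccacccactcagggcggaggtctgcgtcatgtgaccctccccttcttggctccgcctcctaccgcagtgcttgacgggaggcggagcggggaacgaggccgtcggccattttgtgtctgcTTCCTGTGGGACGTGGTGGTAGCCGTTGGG
In ZNF263 the shALKBH5 peak covered 173 bases of the window, 123 of them before the annotated start, and in the other 3 genes the covered bases, 42, 22 and 30, all lay after the start. GGACT, a common form of the m6A consensus, was looked for in the first 50 bases after the start on the gene's strand and in the whole window on both strands. It stood in the first 50 bases of 1 of 29 ZNF windows reached by a start peak (3.45%, 0.0873 to 17.8) against 4.9% of all 35116 RefSeq windows. Of all 556 ZNF windows 4.5% (2.93 to 6.57) had it in the first 50 bases. On both strands of the whole window it stood in 7 of those 29 windows (24.1%, 10.3 to 43.5). That compares with 44.2% of all windows and 51.1% (46.8 to 55.3) of all ZNF windows. Most bases of a window lie before the annotated start. Whether the windows hold methylated bases was not tested, and sequence under the other peaks was not used here.

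ZNF genes had more peaks per gene than the other genes. They averaged 2.97 peaks (2.80 to 3.14) against 2.01 (1.98 to 2.03) in the shALKBH5 list, and 2.86 (2.69 to 3.03) against 1.95 (1.93 to 1.98) in the shNC list. At least 3 peaks were found in 55.6% of ZNF genes (50.6 to 60.5) against 24.9% of other genes in the shALKBH5 list, and in 51.1% (46.1 to 56.2) against 23.0% in the shNC list. A single peak was found in 67 ZNF genes (16.5%) against 48.6% of other genes in the shALKBH5 list, and in 71 (18.0%) against 50.4% in the shNC list. The highest number was 9 in either list. Peak widths summed over a gene had a median of 1143 bases for ZNF genes against 477 in the shALKBH5 list, and 1194 bases against 480 in the shNC list. Bases shared by overlapping peaks of a gene are counted more than once in such sums. The peaks of a ZNF gene also stood close together. With peaks that overlap another peak of their list left out, the median gap on the genome between neighbouring peaks of a gene was 390.5 bp (358 to 449) for ZNF genes against 1287 bp (1197 to 1379) for the others in the shALKBH5 list. The shNC list gave 388 bp (357 to 448) against 1166 bp (1078 to 1258). Gaps under 1000 bp made up 74.1% and 75.1% of ZNF gaps in the shALKBH5 and shNC lists, against 47.0% and 48.1% of the other gaps. Among ZNF genes with a KRAB domain the share was 79.2% (75.1 to 82.9) and 79.4% (75.1 to 83.2), and among those without it was 64.1% (57.5 to 70.4) and 66.5% (59.6 to 73.0).

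**Figure D1:**
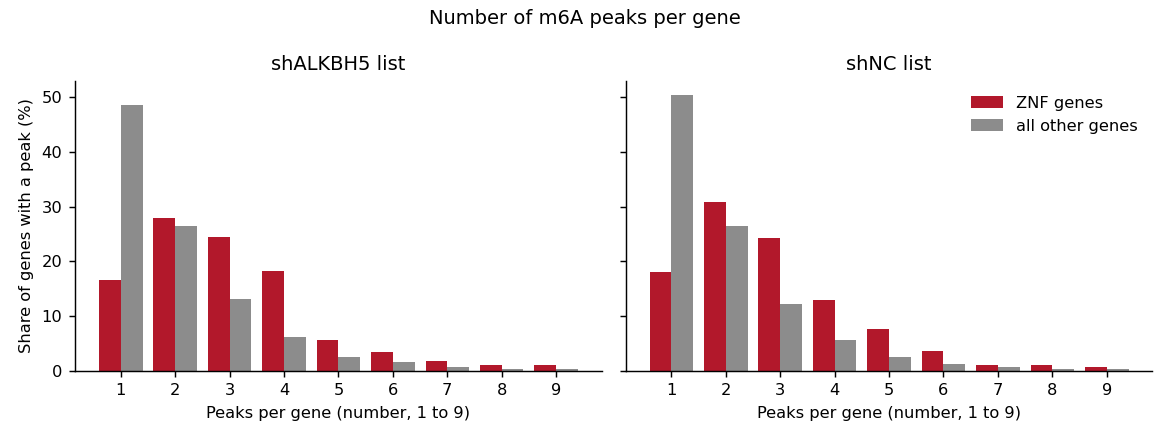
Share of genes (%) by their number of m6A peaks, from 1 to 9, for ZNF genes and for all other genes in the shALKBH5 list (left) and the shNC list (right); other genes with more than 9 peaks are not drawn. ZNF genes with 1 peak make up 16.5% and 18.0%, against 48.6% and 50.4% of the other genes.

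The other zinc finger families had similar numbers. Genes named ZBTB, in which a BTB domain accompanies the fingers, averaged 3.21 peaks (2.67 to 3.83) in the shALKBH5 list and 2.95 (2.43 to 3.54) in the shNC list. ZSCAN genes averaged 3.44 (2.59 to 4.47) and 3.35 (2.54 to 4.34), and ZFP genes 2.69 (1.94 to 3.62) and 2.81 (2.05 to 3.76). The 6 ZKSCAN genes averaged 3.67 (2.30 to 5.55) and 3.83 (2.43 to 5.75). These intervals overlap those of the ZNF genes, so the number of peaks did not set the ZNF name apart from its relatives. The median peak width of the ZBTB family, 359.5 bases in the shALKBH5 list and 360 in the shNC list, was also near that of ZNF peaks, given below. In the shALKBH5 list the median was 328 bases for ZSCAN, 316 for ZKSCAN and 360 for ZFP peaks, so width did not set the ZNF name apart either.

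The 6 ZNF genes with the most peaks in all were ZNF468, ZNF263, ZNF814, ZNF518B, ZNF646 and ZNF407. ZNF468 (ENSG00000204604), a KRAB gene on chromosome 19, had 9 peaks in the shALKBH5 list and 9 in the shNC list. Of these, 4 and 6 lay outside the RefSeq span of the gene (52838010 to 52857619) and the same numbers overlapped another peak of their own list, so the count of this gene is uncertain. ZNF814 (ENSG00000204514) had 9 peaks in the shALKBH5 list and 8 in the shNC list, of which 7 and 6 lay outside its RefSeq span. Among them, the peak at 57858876 to 57859416 in both lists covers nearly the same bases as the shALKBH5 peak assigned to ZNF587 at 57858843 to 57859413. ZNF587 is a KRAB gene known to repress transposable elements. The stretch lies inside the RefSeq span of ZNF587 (57849859 to 57865117) and outside that of ZNF814 (57869381 to 57905128). Its assignment to ZNF814 is therefore uncertain, and from which of these genes the reads came was not tested.

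ZNF263 (ENSG00000006194, chromosome 16, RefSeq span 3283491 to 3301401) had 9 peaks in the shALKBH5 list and 8 in the shNC list, and each had a partner in the other list. A partner means a peak of the other list that shares at least 1 base, strand ignored. In each list 1 peak of ZNF263 lay outside its RefSeq span. In the shALKBH5 list 4 of its peaks, and in the shNC list 3, overlapped another peak of their own list. Its peaks ran from the start window printed above to the gene end. With overlaps counted in full, their widths summed to 4348 bases in the shALKBH5 list and 4768 bases in the shNC list. The strongest stood at 3289476 to 3289895 in the shALKBH5 list, with 21.4-fold enrichment (log10 p -1080), and at 3289446 to 3289895 in the shNC list, with 18.1-fold enrichment (log10 p -1040.) All folds (IP over input within the peak) and log10 p are the authors' own values for each peak and are used only within a list. ZNF646 (ENSG00000167395, chromosome 16) had 8 peaks in each list, whose widths summed to 4596 bases in shALKBH5 and 4595 bases in shNC. ZNF518B (ENSG00000178163, chromosome 4) had 8 peaks in the shALKBH5 list and 9 in the shNC list, but covered only 1684 and 1746 bases, so that its many peaks were narrow. ZNF407 (ENSG00000215421, chromosome 18) had 7 peaks in the shALKBH5 list and 9 in the shNC list, and 4 of them in each list overlapped another peak of that list.

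ZNF peaks were wider than those of other genes. The median width, summed over the blocks of a peak, was 330 bases (301 to 331) against 269 (262 to 269) in the shALKBH5 list. It was 359 bases (330 to 361) against 270 (270 to 270) in the shNC list. Peaks of at least 1000 bases made up 6.82% of ZNF peaks (5.46 to 8.40) against 3.2% of the others in the shALKBH5 list, and 7.45% (5.98 to 9.14) against 3.52% in the shNC list. Fewer ZNF peaks crossed a splice junction, 10.3% (8.65 to 12.2) against 18.3% in the shALKBH5 list and 9.22% (7.60 to 11.1) against 17.9% in the shNC list. Width and strength move together in these lists, so peaks were also compared within quartiles of log10 p, quartile 1 holding the strongest. In quartile 1 the median width was 688 bases against 481 in the shALKBH5 list and 779.5 against 510 in the shNC list. In quartile 4 it was 151 bases against 150 in both lists, so the greater width was seen among strong peaks and not among the weakest. The median fold was 8.82 (8.37 to 9.35) for ZNF peaks against 6.50 (6.34 to 6.64) in the shALKBH5 list, and 9.46 (8.92 to 10.1) against 6.39 (6.24 to 6.50) in the shNC list.

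**Figure D2:**
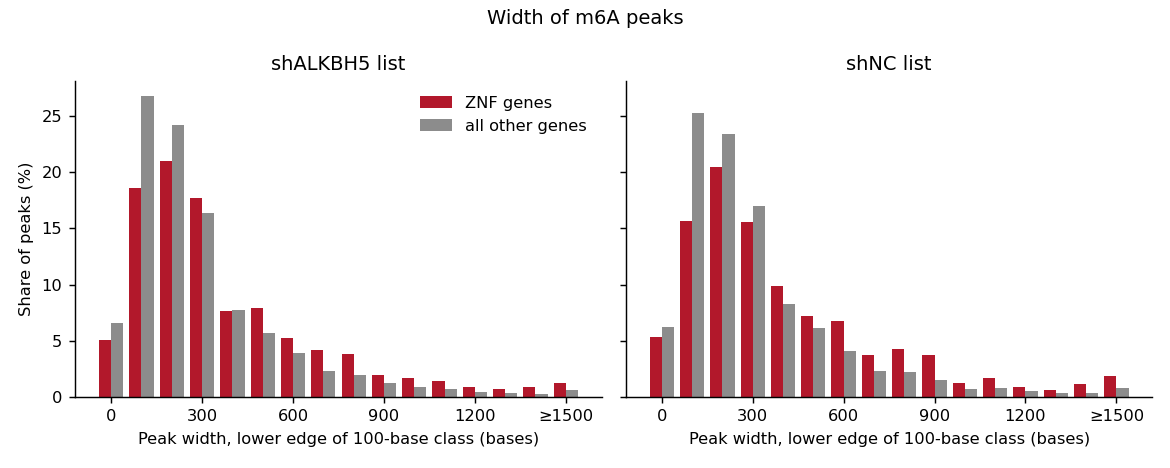
Share of peaks (%) in 100-base classes of width for ZNF genes and all other genes in the shALKBH5 list (left) and the shNC list (right), the last class holding all peaks of 1500 bases or more. ZNF peaks have a smaller share in the narrow classes and a larger one above 600 bases, with medians of 330 and 359 bases against 269 and 270.

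The widest ZNF peak of the shALKBH5 list was in ZNF281 (ENSG00000162702), a transcription factor with a role in stem cell differentiation. It spanned 200406969 to 200410026 on chromosome 1 with 2836 bases in 2 blocks and a fold of 19. The same stretch of the shNC list held separate peaks of 986 and 1672 bases. ZNF451 (ENSG00000112200), a SUMO ligase, showed the opposite arrangement. It had the widest ZNF peak of the shNC list, 2518 bases at 57100726 to 57103243 on chromosome 6 with a fold of 32.5, where the shALKBH5 list held 4 peaks of 301, 240, 900 and 660 bases. ZNF189 (ENSG00000136870, chromosome 9), a KRAB gene, had 1 wide peak near its end in each list, of 2061 bases in shALKBH5 and 2031 bases in shNC. ZNF680 (ENSG00000173041, chromosome 7) had a peak of 2032 bases in the shALKBH5 list, and its strongest shNC peak was 1405 bases wide. ZNF292 (ENSG00000188994, chromosome 6), whose product is a large nuclear zinc finger protein, had a peak of 2129 bases in the shNC list. ZNF623 on chromosome 8 was listed with nearly coincident wide peaks in each list, of 2423 and 2388 bases in shALKBH5 and 2423 and 2418 bases in shNC, which overlap within their list.

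Peaks of 1 list that lie over several of the other were more common among ZNF genes, taking all widths together. Of 1008 shNC ZNF peaks that overlapped a shALKBH5 peak of the same gene, 116 lay over 2 or more of them (11.5%, 9.60 to 13.6), against 5.20% (4.88 to 5.53) of the other shNC peaks. Of 1044 shALKBH5 ZNF peaks that overlapped a shNC peak of the same gene, 80 lay over 2 or more of them (7.66%, 6.12 to 9.45), against 4.98% (4.67 to 5.30) of the others. When peaks overlapping another peak of their own list were left out, the shares were 7.92% against 2.94%, and 4.14% against 2.64%. Wide peaks broke more often in general, and at 600 to under 1000 bases the share was 21.6% (16.2 to 27.9) of shNC ZNF peaks against 12.8% (11.4 to 14.3) of the others. For shALKBH5 peaks of that width it was 12.6% (8.18 to 18.4) against 11.9% (10.6 to 13.3), within counting error. At 1000 bases or more the intervals overlapped in both directions, with 31.0% (21.3 to 42.0) against 25.7% (22.6 to 29.0) of shNC peaks and 28.0% (18.7 to 39.1) against 21.7% (18.8 to 24.9) of shALKBH5 peaks. Among 805 ZNF peaks paired with exactly 1 peak of the other list and that peak with them, the shALKBH5 peak was the wider in 36.4% (33.1 to 39.8) and the narrower in 48.1% (44.6 to 51.6). Among 16545 other pairs the shares were 40.3% (39.6 to 41.1) and 36.8% (36.1 to 37.6). The shALKBH5 ZNF peaks of these pairs had a median of 331 bases and the shNC ones 360 bases, while the other pairs had 300 bases in both lists. Identical borders were found in 9.32% of ZNF pairs (7.40 to 11.5) against 16.1%. Without replicates, a difference between hairpins and a difference between the libraries cannot be told apart.

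ZNF genes were concentrated on chromosome 19, as the genome arranges them. Chromosome 19 held 546 of the 1202 shALKBH5 ZNF peaks (45.4%, 42.6 to 48.3) against 6.26% of the other peaks, and 523 of the 1128 shNC ZNF peaks (46.4%, 43.4 to 49.3) against 5.86%. ZNF peaks therefore made up 27.1% of all chromosome 19 peaks in the shALKBH5 list and 29.5% in the shNC list. The next chromosomes were 16, with 97 ZNF peaks in shALKBH5 and 87 in shNC, and 7, with 88 and 89, and 3 chromosomes had none. The family was broadly represented, since 399 of 509 RefSeq protein-coding genes matching the name rule had a peak in either list (78.4%, 74.6 to 81.9), against 48.3% (47.6 to 49.0) of other coding genes. That share was 79.3% (73.7 to 84.2) for chromosome 19 and 77.6% (72.0 to 82.5) elsewhere. Expression levels were not analysed here, and their part in these shares was not tested.

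**Figure D3:**
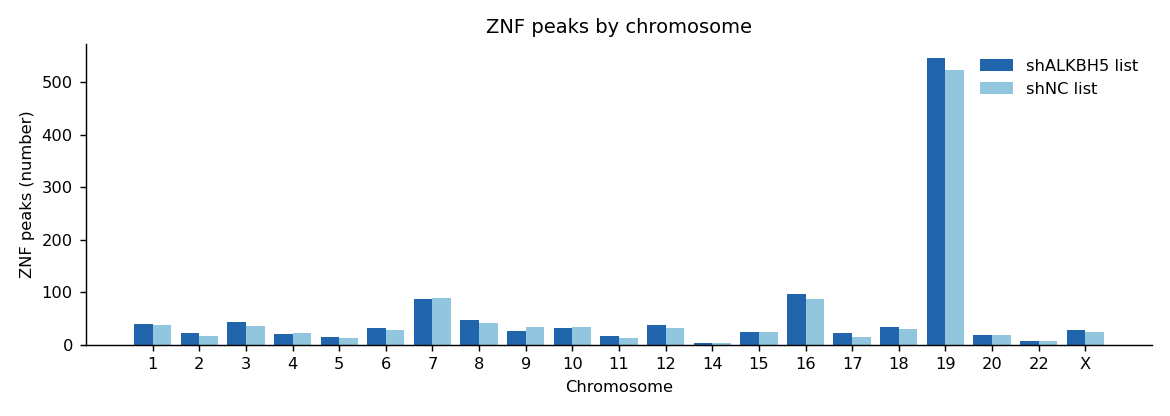
Number of ZNF peaks on each chromosome that has any, for the shALKBH5 list and the shNC list. Chromosome 19 holds 546 and 523 peaks, and no other chromosome holds more than 97.

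RefSeq genes with ZNF names on chromosome 19 that lie less than 500 kb apart were taken as clusters. The cluster at 57.2 to 58.5 Mb had a peak in 41 of its 43 genes (95.3%, 84.2 to 99.4), with 116 peaks in the shALKBH5 list and 110 in the shNC list. The cluster at 51.6 to 53.6 Mb, which holds ZNF468, had a peak in 35 of 43 genes (81.4%, 66.6 to 91.6) and the most peaks per gene of the large clusters, 3.82 in shALKBH5 and 3.57 in shNC. At 19.7 to 24.1 Mb, 27 of 42 genes had a peak (64.3%, 48.0 to 78.4), with 63 peaks in the shALKBH5 list and 65 in the shNC list. At 11.5 to 12.6 Mb it was 18 of 28 (64.3%, 44.1 to 81.4), with 49 and 37 peaks. The interval at 57.2 to 58.5 Mb lies above those of both clusters with 64.3%, while that at 51.6 to 53.6 Mb overlaps them. The other large clusters, at 36.2 to 37.8, 43.5 to 44.5 and 55.5 to 56.7 Mb, had a peak in 77.8%, 73.9% and 76.5% of their genes.

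Peaks of ZNF genes on chromosome 19 resembled those of ZNF genes elsewhere in width and number. The median width was 330 bases (301 to 357) on chromosome 19 against 329 (300 to 331) elsewhere in the shALKBH5 list, and 331 (301 to 387) against 360 (330 to 390) in the shNC list. Peaks per gene were 2.80 (2.57 to 3.05) against 3.12 (2.89 to 3.37) in the shALKBH5 list, and 2.77 (2.54 to 3.01) against 2.94 (2.71 to 3.18) in the shNC list, with overlapping intervals. They differed in position. Within 5 kb of the gene end lay 77.2% of chromosome 19 ZNF peaks (73.4 to 80.7) against 55.7% (51.7 to 59.5) of those elsewhere in the shALKBH5 list, and 77.2% (73.3 to 80.8) against 57.5% (53.4 to 61.5) in the shNC list. Peaks of other genes differed in the same direction, with 65.7% (63.0 to 68.4) on chromosome 19 against 54.5% (53.8 to 55.2) elsewhere in the shALKBH5 list and 67.7% (64.8 to 70.5) against 56.7% (56.0 to 57.5) in the shNC list. At the gene start lay 8 of 522 placed chromosome 19 peaks (1.53%, 0.664 to 3) against 6.51% (4.73 to 8.70) elsewhere in the shALKBH5 list, and 5 of 501 (0.998%, 0.325 to 2.31) against 4.03% (2.60 to 5.94) in the shNC list. For KRAB genes without SCAN on chromosome 19 the start share was 0.673% in the shALKBH5 list and 0% in the shNC list. For the other genes the start share on chromosome 19 and elsewhere was 15.2% and 15.0% in the shALKBH5 list, and 12.4% and 11.9% in the shNC list.

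ZNF peaks as a whole lay deeper in the gene than other peaks. Of 1167 ZNF peaks that could be placed in the shALKBH5 list, 50 lay at the start (4.28%, 3.2 to 5.61), against 15.0% (14.6 to 15.5) of the others. It was 29 of 1096 (2.65%, 1.78 to 3.78) against 11.9% (11.5 to 12.4) in the shNC list. Among the related families, the start share in the shALKBH5 list was 7.38% for ZBTB, 12.7% for ZSCAN, 4.55% for ZKSCAN and 4.65% for ZFP peaks. The share of ZNF peaks whose 3' edge was within 5 kb of the gene end was 65.3% (62.5 to 68.0) against 55.2% in the shALKBH5 list. In the shNC list it was 66.5% (63.6 to 69.3) against 57.3%. The last kilobase itself was no richer in ZNF peaks, with 20% against 23.3% in the shALKBH5 list and 19.7% against 24.4% in the shNC list. The excess lay between 1 and 5 kb from the end, where each kilobase held a larger share of ZNF peaks than of other peaks.

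**Figure D4:**
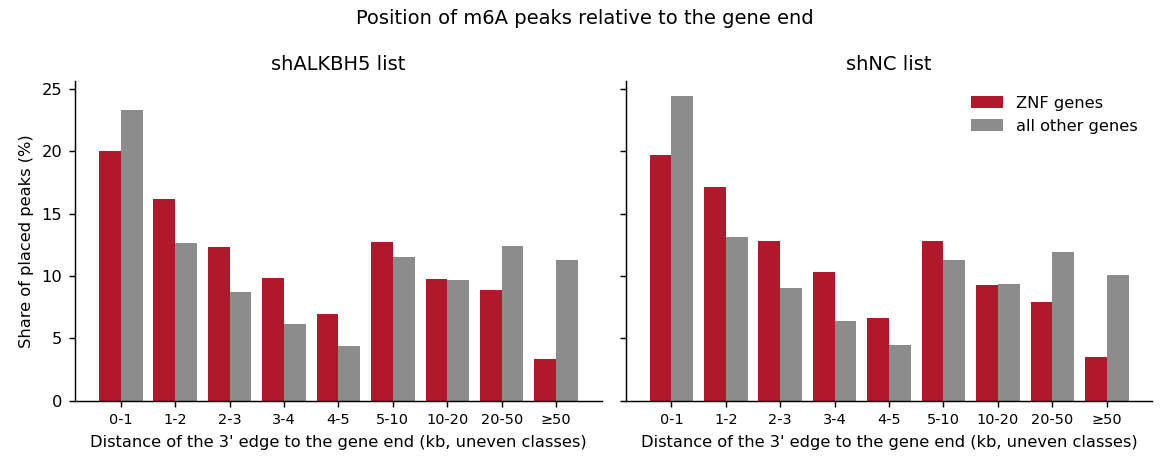
Share of placed peaks (%) by the distance of their 3' edge to the RefSeq gene end, in uneven classes in kb, for ZNF genes and all other genes in the shALKBH5 list (left) and the shNC list (right). In the class nearest the end ZNF peaks hold 20% and 19.7%, against 23.3% and 24.4% of the others, and they are above the others in each of the next 4 classes.

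Nearly all ZNF genes with a peak had one in both lists. This held for 388 of 412 ZNF genes (94.2%, 91.5 to 96.2), against 82.6% (81.9 to 83.3) of the other 12367 genes. Genes with peaks in the shALKBH5 list alone numbered 17 (4.13%, 2.42 to 6.52), where 11.5% of all genes had peaks in that list alone. Genes with peaks in the shNC list alone numbered 7 (1.70%, 0.686 to 3.47), where 5.5% of all genes did. ZNF genes carry more peaks each, which by itself gives more chances of a peak in both lists, and how far this sets the difference was not tested. The number of peaks was equal in both lists for 182 ZNF genes (44.2%, 39.3 to 49.1), higher in shALKBH5 for 147 and higher in shNC for 83. Among the other genes 30.3% had more peaks in shALKBH5 and 17.0% more in shNC, against 35.7% and 20.1% of ZNF genes.

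The genes found in 1 list alone rested on weak peaks. The strongest of the 17 in shALKBH5 were ZNF793, ZNF98, ZNF582, ZNF563, ZNF815P and ZNF512. ZNF793 (ENSG00000188227), a KRAB gene on chromosome 19, had 2 peaks and the lowest log10 p, -6.82, at a fold of 20.8. ZNF98 (ENSG00000197360), also a KRAB gene on that chromosome, had 1 peak of 450 bases at 25.3-fold enrichment (log10 p -6.68.) ZNF512 (ENSG00000243943, chromosome 2) stood apart with a fold of only 1.41. The strongest of the 7 in shNC were ZNF546, ZNF137P, ZNF890P, ZNF697, ZNF723 and ZNF569. ZNF546 (ENSG00000187187), a KRAB gene, had 2 peaks there, the stronger with 12.5-fold enrichment (log10 p -6.94.) Of the 21 peaks of the genes in shALKBH5 alone, 15 (71.4%, 47.8 to 88.7) had a pair of fold and log10 p that at least 20 peaks of the list share exactly. The peaks of ZNF284, ZNF285 and ZNF570, for instance, all had 10.9-fold enrichment (log10 p -2.53.) In the shNC list this was so for 5 of 8 peaks (62.5%, 24.5 to 91.5). It was so for 37.2% (29.6 to 45.3) of shALKBH5 and 35.8% (27.3 to 45.1) of shNC ZNF peaks that overlapped no peak of the other list. For such peaks of other genes the shares were 29.9% and 27.4%. Among ZNF peaks that did overlap one they were 4.11% in shALKBH5 and 5.56% in shNC.

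Of single peaks, 1046 of the 1202 in the shALKBH5 list had a partner in the shNC list (87.0%, 85.0 to 88.9) against 79.8% (79.3 to 80.3) of the other peaks. The 156 ZNF peaks without one (13.0%) stand beside 19.8% of all peaks in that list. In the shNC list 1008 of 1128 had a partner (89.4%, 87.4 to 91.1) against 87.3% (86.8 to 87.7), and the 120 without one (10.6%) stand beside 12.6% of all peaks in that list. The differences in both lists depend on the overlap asked for. With a reciprocal overlap of 50% the share was 71.5% for ZNF peaks (68.9 to 74.1) against 70.9% for the others in the shALKBH5 list, and 76.2% (73.6 to 78.6) against 77.9% in the shNC list, both within counting error. Sharing followed strength. In the shALKBH5 list 100% of ZNF peaks of quartile 1, 99.2% of quartile 2, 86.5% of quartile 3 (82.1 to 90.1) and 58.2% of quartile 4 (52.1 to 64.2) had a partner, against 99.9%, 96.9%, 78.0% and 44.8% of the others. In the shNC list the shares were 100%, 100%, 93.3% (89.7 to 96.0) and 60.9% (54.7 to 66.9), against 99.9%, 99.1%, 88.9% and 61.4%. On chromosome 19 and elsewhere the shares were the same in the shALKBH5 list, 87.0% and 87.0%, and 89.9% and 88.9% in the shNC list.

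**Figure D5:**
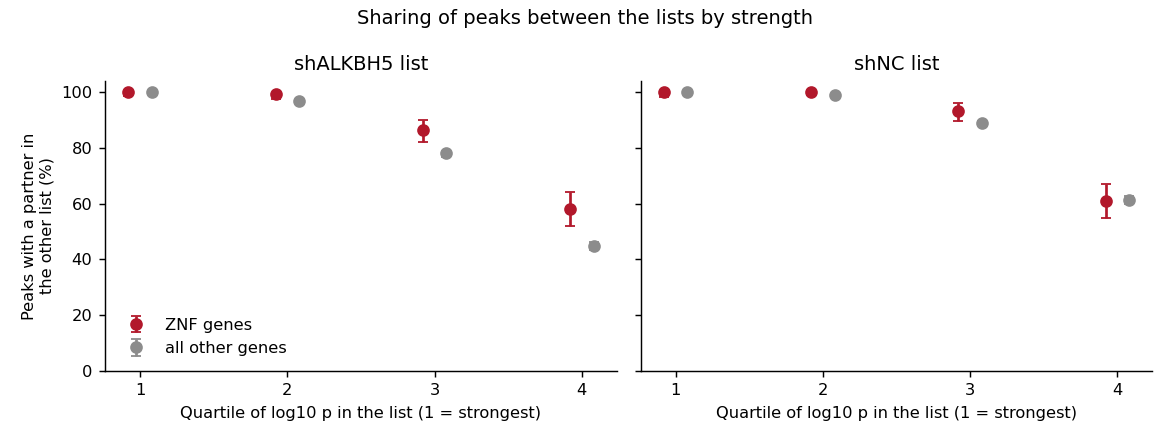
Share of peaks (%) that overlap a peak of the other list by at least 1 base, by quartile of the authors' log10 p within the list, for ZNF genes and all other genes in the shALKBH5 list (left) and the shNC list (right); bars are exact 95% binomial intervals. The share is 100% for ZNF peaks of quartile 1 in both lists and 58.2% and 60.9% in quartile 4.

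Peaks without a partner were narrow, with a median of 151 bases in the shALKBH5 list and 121 in the shNC list, against 360 and 390 bases for ZNF peaks with one. The strongest in shALKBH5, in genes with peaks in both lists, was in ZNF639 (ENSG00000121864), a zinc finger gene on chromosome 3, at 179322991 to 179323201. It lay 115 bp inside the gene start with 6.33-fold enrichment (log10 p -20.) The main peak of ZNF639, at 179333312 to 179334181 in shALKBH5 and 179333282 to 179334211 in shNC, was shared and had the lowest log10 p of all ZNF peaks, -1930 and -1940. ZNF672 (ENSG00000171161, chromosome 1) followed with a peak near its end at 2.84-fold enrichment (log10 p -19.6), and ZNF18 (ENSG00000154957, chromosome 17) with 5.60-fold enrichment (log10 p -15.7.) In the shNC list the strongest were in ZNF526 (ENSG00000167625, chromosome 19), with 5.17-fold enrichment (log10 p -15.8), in ZNF292 with 11.6-fold enrichment (log10 p -13.7), and in ZNF438 (ENSG00000183621, chromosome 10) with 4.15-fold enrichment (log10 p -13.1.)

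Within ZNF genes, start peaks were the least often shared in the shALKBH5 list. There 25 of 50 had no partner (50%, 35.5 to 64.5), against 35.7% (34.0 to 37.4) of the start peaks of other genes, a difference within counting error, while 11.4% of ZNF peaks inside the gene and 9.91% of those at its end had none. In the shNC list 5 of 29 ZNF start peaks had no partner (17.2%, 5.85 to 35.8), against 13.5% (12.1 to 15.0). The ZNF598 peak printed above had 2.73-fold enrichment (log10 p -14.7), and that of ZNF207 had 1.85-fold enrichment (log10 p -12.5.) By contrast, the ZNF622 start peak had a fold of 4.38 in shALKBH5 and 3.89 in shNC. Of all ZNF peaks without a partner, 16.8% (11.2 to 23.8) lay at the start in shALKBH5 and 4.27% (1.40 to 9.69) in shNC, and the corresponding shares of other genes were 27.5% and 13.1%. The start shares given above were 4.28% in shALKBH5 and 2.65% in shNC for ZNF genes, and 15.0% and 11.9% for the other genes. With 1 list per hairpin, a difference between hairpins and a difference between the libraries cannot be told apart here either.

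The number of peaks differed by 3 or more between the lists in 13 ZNF genes, higher in shALKBH5 in 8 of them and in shNC in 5. The difference was 4 in 3 genes and 3 in the other 10, and of the 10 only the 5 with the lowest log10 p are described. The same count was not made for genes without a ZNF name, and ZNF genes carry more peaks each. Whether 13 is many therefore cannot be told. ZNF252P, a pseudogene on chromosome 8, had 9 peaks in shALKBH5 and 5 in shNC, and ZNF528, a KRAB gene on chromosome 19, had 6 and 2. In ZNF528 the peaks stood in nearly coincident pairs, so that the counts are those of 3 sites and 1 site, as at 52416759 to 52416998 and 52416770 to 52417008 in the shALKBH5 list. ZNF883 on chromosome 9 had 4 peaks in shALKBH5 and 8 in shNC, again in pairs. ZNF142 had 8 peaks in shALKBH5 and 5 in shNC, ZNF394 had 5 and 2, and ZNF652 had 6 and 3. ZNF317 had 4 in shALKBH5 and 7 in shNC, and ZNF248 had 3 and 6. In ZNF528 the peak widths summed to 1051 bases in shALKBH5 and 181 in shNC, with both peaks of each pair counted in full. The summed widths differed less in the other 7, as with 3174 bases in shALKBH5 and 2933 in shNC for ZNF142, 1653 and 1409 for ZNF394, and 1802 and 2045 for ZNF317.

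The peaks with the highest folds in both lists included genes of several kinds. By the worse of the ranks in the lists, the first 6 were in ZNF443, ZNF429, ZNF117, ZNF768, ZNF589 and ZNF827. ZNF443 (ENSG00000180855), a KRAB gene on chromosome 19, had a fold of 71.9 at rank 75 in the shALKBH5 list and 61.5 at rank 103 in the shNC list. The shALKBH5 peak ran from 12430066 to 12430545 and the shNC peak from 12430066 to 12431651, a stretch that the shALKBH5 list divides. ZNF429 (ENSG00000197013), on the same chromosome, had a fold of 67.9 (log10 p -19.4) in shALKBH5 and 60.7 (log10 p -17.3) in shNC. ZNF117 (ENSG00000152926, chromosome 7) had 76.0 (log10 p -23.5) in shALKBH5 and 47.3 (log10 p -14.0) in shNC. ZNF768 (ENSG00000169957, chromosome 16) had 51.6 (log10 p -141) in shALKBH5 and 46.4 (log10 p -127) in shNC. A high fold thus did not always come with a low p, and the median log10 p of shALKBH5 ZNF peaks was -16.8. ZNF589 (ENSG00000164048, chromosome 3), a KRAB gene, had the same borders in both lists, 48286315 to 48287419, with folds of 42.5 in shALKBH5 and 57.5 in shNC. That peak lies 15.3 kb outside the RefSeq span of ZNF589 (48241104 to 48270990), so its assignment to this gene is uncertain. ZNF827 (ENSG00000151612, chromosome 4), which recruits chromatin regulators to telomeres, had folds of 40.9 in shALKBH5 and 41.4 in shNC.

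Of 16 KRAB genes with a described target, 14 had peaks, all of them in both lists, with 54 peaks in shALKBH5 and 53 in shNC. ZNF141 and ZNF382 had none. Of all coding ZNF genes in RefSeq 78.4% had a peak, and 94.2% of those with a peak had one in both lists, so the counts are near those of the family. Peak numbers were higher in shALKBH5 for 5 of them, equal for 5 and higher in shNC for 4, where the whole family had 35.7%, 44.2% and 20.1%. ZNF274 (ENSG00000171606), which directs SETDB1 to the ends of zinc finger genes, had 1 wide peak in each list, of 1050 bases at a fold of 20.4 in shALKBH5 and 1110 bases at a fold of 16.5 in shNC. ZNF445 (ENSG00000185219), a regulator of genomic imprinting, had 7 peaks in shALKBH5 and 5 in shNC, and its strongest peak measured 1349 and 1768 bases. ZNF649, which represses promoters of the LINE-1 element, had 2 peaks in shALKBH5 and 3 in shNC, and ZNF202 had 4 in each. ZNF224, a KRAB gene first described as a repressor of aldolase A, had 3 in shALKBH5 and 4 in shNC.

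Of 28 genes with a role outside KRAB repression, 24 had peaks, again all in both lists, with 91 peaks in shALKBH5 and 85 in shNC. ZNF143, ZNF521, ZNF423 and ZNF462 had none. These counts too are near the shares of the whole family, 78.4% and 94.2%. ZNF593 (ENSG00000142684), whose relative in yeast is a ribosome export factor, had a single peak of 296 bases in each list at folds of 8.41 in shALKBH5 and 8.46 in shNC. ZNF207 had its strongest peak at 32369771 to 32370011 in shALKBH5 and to 32370041 in shNC, with folds of 4.86 and 4.48. ZNF131 had 4 peaks in shALKBH5 and 3 in shNC, of which 2 and 1 lay outside its RefSeq span. ZNF638, an RNA-binding splicing regulator, had 7 and 6, ZNF592 had 5 and 4, and ZNF687 had 3 and 4. All 14 partners of KRAB repression looked for, which are not ZNF genes, had peaks, and 11 had them in both lists. In RefSeq 48.3% of coding genes without a ZNF name had a peak. Of all genes without a ZNF name that had a peak, 82.6% had one in both lists. TRIM28 and CBX3 had a peak in the shALKBH5 list alone, and UHRF1 had 2 in the shNC list alone. Of all genes, 11.5% had peaks in the shALKBH5 list alone and 5.5% in the shNC list alone, and these counts are near those shares. The shALKBH5 peak of TRIM28 had a fold of 1.77 (log10 p -44.6).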

How the data were processed

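Poly(A) RNA of RPMI-8226 cells was made into 1 IP and 1 input library per hairpin, 4 libraries in all, and the authors deposited 1 peak list per condition. Per the submitters' processing notes, the build was hg38 and the tools included HOMER 4.9.1, fastp 0.19.11 and BWA 0.7.12. The sources used here give neither the peak caller with its settings nor the library strandedness. Per the file headers, the deposited lists give blocks, a gene, a fold enrichment (a ratio of IP over input) and a p-value for each peak. Its log10 p and log10 of FDR, as the authors deposited them, pass -100 and were treated as scores.

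Peaks were taken by gene name and set beside all other peaks of the same list. Quartiles are of log10 p in the whole list. Partners were found with bedtools 2.31.1, and intervals and tables were made with SciPy 1.17.1, numpy 2.4.6 and pandas 2.3.3 under Python 3.11.15. Plots were drawn with matplotlib 3.10.9. Binomial intervals are Clopper-Pearson, those of medians are from order statistics and those of peaks per gene are Poisson. Gene spans and promoter windows are RefSeq's on GRCh38.p14, the assembly called hg38, and a peak was placed where it overlapped the span of its gene. RefSeq gives 1 span per gene here, so alternative starts were seen only in an added setting. Run on simulated data, the partner call and the start call were right for all 2000 planted peaks each, and merging for all 200 genes. The planted peaks were unspliced, on the plus strand and far apart. These runs therefore check only that the code works in simple cases, and do not cover spliced, minus-strand or overlapping peaks.

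The genes described are the 6 with the most peaks, the 6 shared peaks best ranked by fold in the list where they rank worse, up to 6 genes per list without a peak in the other list by log10 p, the 5 widest peaks per list, up to 8 genes whose peak numbers differ most, the strongest 6 members of each gene list, and the 3 strongest peaks without partner per list in shared genes. Other genes were named after their values were seen. The genes, lists and comparisons were chosen with earlier results of these data known.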

Additional observations from a re-analysis of the deposited data

How the results depend on the processing

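No paired analysis was possible because each condition has a single peak list and no replicate numbers. Of 159 alternative values, 126 stayed within counting error of the reported ones and 33 moved. Wider ZNF peaks, more peaks per gene, the higher chromosome 19 share, the lower start share and the higher share of genes in both lists held against the other genes in every setting run. Of 149 comparisons, 21 changed side. Of these, 20 were between chromosome 19 and elsewhere, where width and partner share are near equal, and 1 was in the shNC partner share. Each chromosome 19 contrast enters these counts from both sides, so the distinct contrasts are fewer. At a reciprocal overlap of 50% the shALKBH5 partner share kept its side by less than counting error. Values are given for shALKBH5 and then shNC, and the cause of a shift was not tested.

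With folds of at least 2 times the lowest, ZNF peaks were 5.21% and 5.41% of the lists. With a reciprocal overlap of 50%, partner shares were 71.5% (71.6% on chromosome 19, 71.5% elsewhere) and 76.2% (75% and 77.2%). Allowing a distance of 200 bp gave 89.7% (90.1% elsewhere) and 92.6% (93.2% elsewhere). Lists of equal length gave 90.5% (91.3% on chromosome 19, 89.9% elsewhere) and 86.9%. Merging peaks within 100 bp gave 2.71 and 2.60 peaks per gene, with 2.53 and 2.52 on chromosome 19 and 2.89 and 2.68 elsewhere, and widths of 359 bases on chromosome 19 for shALKBH5, and 390 in all and 389 on chromosome 19 for shNC. Leaving out peaks that overlap their own list gave 2.72 and 2.65 peaks per gene, 2.84 elsewhere for shALKBH5, and divided shares of 4.14% for shALKBH5 peaks and 7.92% for shNC peaks. The genomic span gave a shNC width of 374. A start limit of 200 bp gave start shares of 2.91% and 1.64%. Using the starts of all RefSeq promoter windows, added after seeing the data, gave 5.45% and 3.69%. That setting left out the peaks on chromosome 8, so its set of peaks differs from that of the reported shares.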

Other observations

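Some names of the ZNF type fell outside the rule because a suffix follows the number, as in antisense and readthrough transcripts. They had 41 peaks in 18 genes in the shALKBH5 list and 32 peaks in 15 genes in the shNC list, of which 23 and 15 were peaks of antisense or divergent transcripts and 5 and 4 of readthrough transcripts. In addition, 98 ZNF peaks of the shALKBH5 list and 87 of the shNC list overlapped a peak of a gene without a ZNF name, and 31 and 29 overlapped a peak of a different ZNF gene. Since it is not given whether the libraries keep strand, these peaks cannot be assigned to 1 gene. Beside the peaks described above, the highest folds among ZNF peaks were 118 in shALKBH5, for ZNF583, and 204 in shNC, for ZNF254, both on chromosome 19.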
